A study of Mus musculus with 12 samples.

Results

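The genes described here are 38 genes of mitosis and of the G2 to M transition of the cell cycle, taken by gene symbol from a table of 18929 symbols. All 38 were found, each in 1 row, and all 38 passed the filter on low values. The table comes from T cells of C57BL/6 mice that were held for 5 days in culture conditions driving T helper 1 (Th1) differentiation and then sorted for RNA sequencing. It compares 3 wild-type control libraries with 3 from Sdhc cKO cells, which carry a conditional knockout of Sdhc, a membrane subunit of respiratory complex II (succinate dehydrogenase). Neither the Cre driver, the ages of the animals nor whether a library is 1 animal or a pool is given in these sources. The p-values therefore reflect only library-to-library spread. Libraries within each group differed in sex-linked RNA, as described below, so this spread is not purely technical. Whether cKO 2 and cKO 3, which were alike in sex-linked RNA, come from separate animals is not known. Samples of the Slc25a1, Slc25a11 and EV groups of the same series were not analysed here.

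A cell enters mitosis when cyclin B, bound to the kinase CDK1, is switched on by CDC25 phosphatases. Polo-like and Aurora kinases then build the spindle, the spindle checkpoint holds the cell until every kinetochore is attached, and the anaphase-promoting complex (APC/C), with its activator CDC20, marks cyclin B and other proteins for degradation so that the chromosomes separate and the cell divides. The mRNAs of most of these proteins build up late in the cycle and are low in resting cells, which makes them common markers of dividing cells. Activated T cells divide rapidly, so these transcripts are abundant in a culture that is expanding. In RNA from bulk cells, a smaller share of cells in G2 or M and less mRNA per such cell cannot be told apart.

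Promoters of this gene class are known for a short element called CHR (cell cycle genes homology region), bound by the MuvB core of the DREAM and B-Myb complexes, and for CCAAT boxes, bound by NF-Y. Textbook cases, those of Ccnb1, Ccnb2, Cdc20 and Plk1, are shown as examples of such windows. The window of Ccnb1 holds CCAAT but neither TTTGAA nor TTCGAA, and those of the other 3 hold both kinds of letters. The windows are from RefSeq (GRCm38.p6), run 5′ to 3′ from 250 bases before to 50 bases after the start of the gene, and lie at chr13:100786437-100786736, minus strand (Ccnb1), chr9:70421505-70421804, minus strand (Ccnb2), chr4:118437294-118437593, minus strand (Cdc20) and chr7:122159185-122159484, plus strand (Plk1). Capitals mark the letters TTTGAA or TTCGAA (CHR) and CCAAT, on either strand.
Ccnb1: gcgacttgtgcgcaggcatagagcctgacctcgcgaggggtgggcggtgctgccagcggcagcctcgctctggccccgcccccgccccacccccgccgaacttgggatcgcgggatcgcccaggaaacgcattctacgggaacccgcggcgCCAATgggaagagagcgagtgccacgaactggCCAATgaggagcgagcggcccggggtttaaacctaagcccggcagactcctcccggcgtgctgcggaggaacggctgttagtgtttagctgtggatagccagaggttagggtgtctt
Ccnb2: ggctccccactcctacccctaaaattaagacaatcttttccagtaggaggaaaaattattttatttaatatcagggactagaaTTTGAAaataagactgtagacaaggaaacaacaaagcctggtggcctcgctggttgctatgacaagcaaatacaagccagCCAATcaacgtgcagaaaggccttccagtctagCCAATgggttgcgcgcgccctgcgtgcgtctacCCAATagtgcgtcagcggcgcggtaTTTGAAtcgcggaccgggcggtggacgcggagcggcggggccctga
Cdc20: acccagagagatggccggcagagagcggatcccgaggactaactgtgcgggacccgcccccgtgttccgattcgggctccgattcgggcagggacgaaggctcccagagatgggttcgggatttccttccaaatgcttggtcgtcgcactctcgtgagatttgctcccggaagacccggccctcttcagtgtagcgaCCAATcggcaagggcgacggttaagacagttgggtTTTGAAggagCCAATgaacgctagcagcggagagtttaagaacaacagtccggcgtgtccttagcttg
Plk1: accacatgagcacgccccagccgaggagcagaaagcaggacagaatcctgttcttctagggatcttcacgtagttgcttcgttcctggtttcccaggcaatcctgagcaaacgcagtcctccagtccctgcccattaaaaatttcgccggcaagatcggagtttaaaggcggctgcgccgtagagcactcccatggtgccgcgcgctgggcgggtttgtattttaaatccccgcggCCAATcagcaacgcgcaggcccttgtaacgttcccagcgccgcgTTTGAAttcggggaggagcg
RefSeq windows were matched for 31 of the 38 genes (33 windows), the others being Ccna2, Cdc25c, Aurkb, Kif20a, Tpx2, Dlgap5 and Smc4. TTTGAA or TTCGAA was found in 23 of the 33 windows, 69.7%, against 19.2% of all 32851 windows of that length. CCAAT was found in 25 windows, 75.8%, against 37.4% of all windows, and both kinds of letters in 19, 57.6%, against 7.52%. Each motif was searched on its own, so neighbouring matches may share letters. A match is a description of the sequence and not evidence that a factor was bound in these cells.

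The libraries held 18144933 to 21983821 counted reads, and values are given as normalised counts, which are reads divided by 1 size factor per library. Sdhc itself had 1602 to 1892 normalised counts in the controls and 1452 to 1655 in the cKO libraries, a log2 difference of -0.15 with an SE of 0.09 (limma adjusted p = 0.978). Gene-level values cannot show a deleted exon, so they do not check the labels. The T cell and Th1 markers (Cd3e, Cd3g, Cd3d, Cd4, Trac, Lck, Cd28, Tbx21, Ifng, Cxcr3 and Il12rb2) were all present and summed to 62281 to 71304 per library. Of these 11, 7 had positive and 4 negative fold changes, and 0 passed. For 2 of them all cKO values lay below the controls, against 5.64% of all tested genes. Ifng had 1342 to 1461 in the controls and 858 to 880 in cKO, a log2 difference of -0.67 (SE 0.07). Tbx21 had 1660 to 1961 in the controls and 1371 to 1501 in cKO, a log2 difference of -0.30 (SE 0.09). Markers of other cells summed to less: the CD8 T cell genes to 235 to 547, the 6 NK cell genes to 106 to 371 and the granulocyte genes to at most 15.4. The immunoglobulin gene Ighm alone had 1577 to 2025. The myeloid genes summed to 93.1 to 186 and the erythroid genes to 14.8 to 118. The gamma delta T cell genes summed to 274 to 337 in the controls and 175 to 246 in the cKO libraries. The largest part was Tcrg-C2, whose groups overlapped. Of the 4 tested genes of this list, 2 had all cKO values below the controls (Tcrg-C4 and Tcrg-C1), against 5.64% of all tested genes, and 0 passed. Trdc was not among the measured genes, and Trdv4 and Cd163l1 never exceeded 10. Cd163l1 had means of 3.41 in the controls and 5.81 in cKO. The sum therefore does not show a difference in gamma delta T cells. The libraries also differed in sex-linked RNA: both libraries numbered 1 had next to no Y-linked reads (Uty, Eif2s3y, Ddx3y, Kdm5d), and the other 4 had many. Among those 4 the genotypes differed too: Xist had 2490 and 6406 normalised counts in control 2 and 3 against 0 and 2.15 in cKO 2 and 3, and Y-linked reads were higher in both cKO libraries. Control 2 and 3 held both Xist and Y-linked reads, and whether they pool animals of both sexes was not tested. Sex-linked RNA thus cannot be told apart fully from genotype or from replicate number.

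No difference in transcripts of the mitotic machinery was detected between Sdhc cKO and control Th1 cells. None of the 38 genes passed the test for a difference between the genotypes (limma-trend on log2(value + 1), Benjamini-Hochberg adjusted p of at least 0.978, threshold 0.05), where 0 of 12699 tested genes, 0%, passed. At an unadjusted p under 0.05 there were 0 of the 38, against 445 of all tested genes (3.5%; 1.98% higher and 1.53% lower in cKO). With the replicate number as a block 1 gene passed over the whole table (0.00787%, lower in cKO), and it belonged to the T cell and Th1 markers above. With DESeq2 1 higher and 1 lower passed (0.00787% each). None of these was among the 38. The median log2 fold change was -0.02 over the 38 and -0.01 over all tested genes, with 16 of the 38 positive and 22 negative. Of all tested genes 5829 were positive and 6870 negative. The split of the 38 depends on the scaling: with upper-quartile factors it was 25 positive and 13 negative, while the median of all tested genes moved to 0.02. Sign counts of the other lists below are given for the main scaling only. For 33 of the 38 the log2 fold change was smaller than 0.1 in size.

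These values also bound the differences. The 95% interval of the log2 fold change held 0 for all 38 genes and lay within -0.5 to 0.5 for 36 of them. The exceptions were Cdc25c, with an interval of -0.31 to 0.62, and Anln, with -0.29 to 0.59. The intervals are per gene and not adjusted for the number of genes. The genes had 564 to 46937 reads per library, so counting error alone was 0.462% to 4.21% of a value. The spread between libraries of a group was wider, with a median coefficient of variation of 4.29% in the controls and 7.72% in the cKO libraries.

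**Figure D1:**
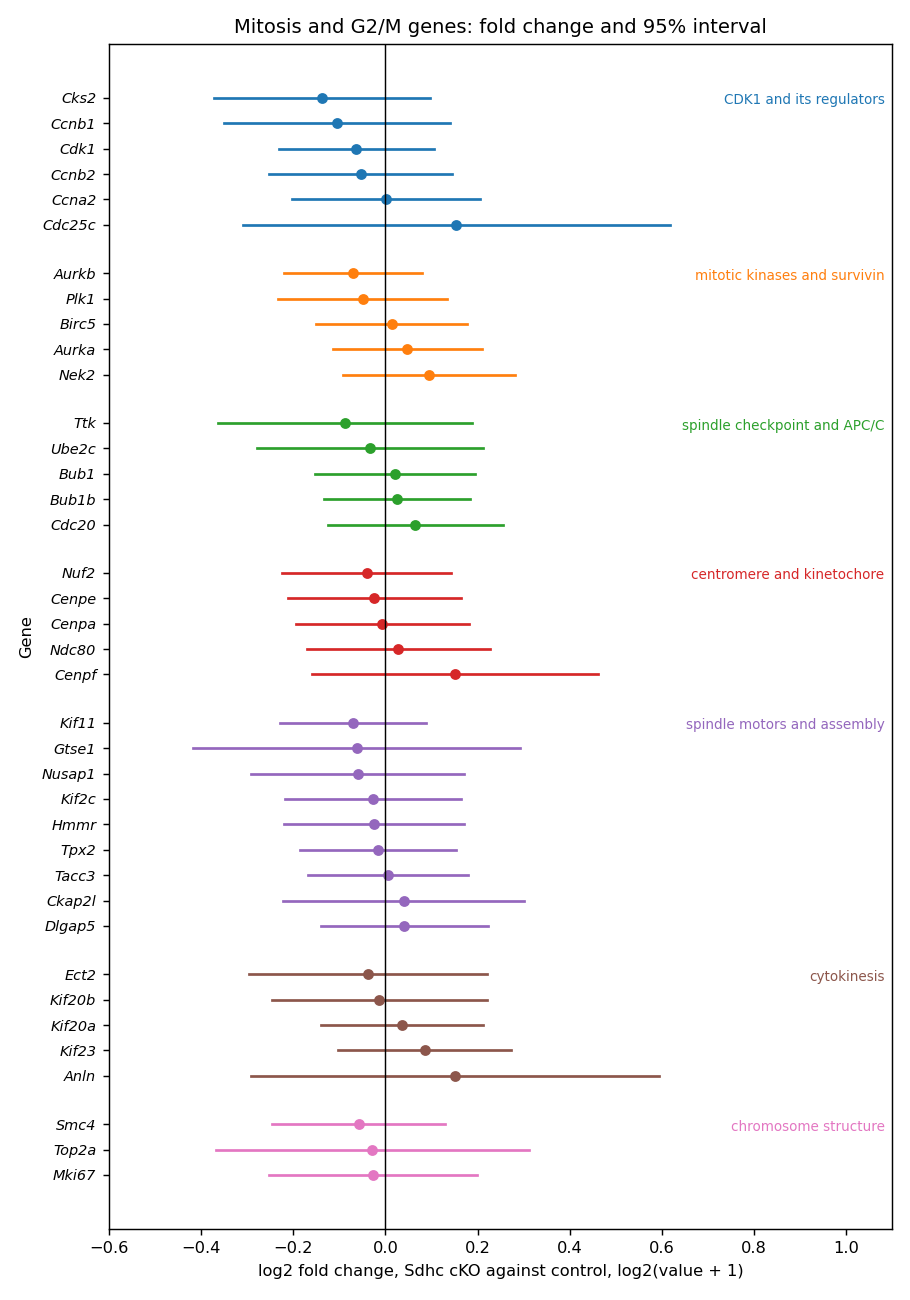
Log2 fold change of each of the 38 genes, Sdhc cKO against control (x axis, log2(value + 1) scale; points), with its 95% interval from limma-trend (lines), by role (colours; genes on the y axis). All 38 intervals cross 0, and the widest are those of Cdc25c and Anln.

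The genes of the CDK1 switch stood between -0.14 and 0.15 on the log2 scale. Cdk1 (chr10:69335146-69352938, GRCm38, minus strand), the kinase that drives entry into mitosis, had normalised counts of 3744, 3866 and 3914 (control 1 to 3) against 3429, 3786 and 3828 (cKO 1 to 3). The means were 3841 ± 87.6 against 3681 ± 219 in cKO (SD, n = 3), a log2 difference of -0.06 (SE 0.07) with a 95% interval of -0.23 to 0.10. The cKO range overlapped the control range, and cKO 1 was the lowest library. Ccnb1 (chr13:100778650-100786570), which encodes the cyclin B1 partner of CDK1, had 2992, 3141 and 3182 (control 1 to 3) against 2452, 3115 and 3143 (cKO 1 to 3), with means of 3105 ± 100.3 against 2903 ± 391 in cKO (SD, n = 3) and a log2 difference of -0.11 (SE 0.11). Here cKO 1 stood alone at 2452 and the other 5 libraries lay between 2992 and 3182. Cks2, a small adaptor subunit of CDK complexes, had the most negative fold change of the 38. Its normalised counts were 868, 871 and 935 (control 1 to 3) against 710.1, 861 and 869.6 (cKO 1 to 3), a log2 difference of -0.14 (SE 0.10) (limma adjusted p = 0.978). Again cKO 1 was the lowest, and cKO 3 lay within the control range.

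Cdc25c, the phosphatase that removes the inhibitory phosphates from CDK1, had the most positive fold change and the lowest mean of the 38. Its normalised counts were 773, 553 and 627 (control 1 to 3) against 954, 572 and 676 (cKO 1 to 3), with means of 651 ± 112 against 734 ± 198 in cKO (SD, n = 3) and a log2 difference of 0.15 (SE 0.20). The highest value in each group was the library numbered 1, and the spread within the groups was larger than the difference between them. With the share of Y-linked reads as a covariate, Cdc25c was the only one of the 38 to pass, with a log2 fold change of 0.37 (limma adjusted p = 0.038). That fit called 209 of all tested genes higher (1.65%) and 617 lower (4.86%). Exons of Cdc25c overlap those of Gm3550 on the opposite strand, and the strand setting of the counting is not given in the sources used here, but Gm3550 had at most 33.1 normalised counts. Ccna2, the cyclin A2 gene and the most abundant of the group, had 6455, 7234 and 7208 (control 1 to 3) against 6340, 7374 and 7220 (cKO 1 to 3), a log2 difference of 0.00 (SE 0.09). Ccnb2, for cyclin B2, had means of 3590 ± 252 against 3459 ± 255 in cKO (SD, n = 3), a log2 difference of -0.05 (SE 0.09).

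Among the mitotic kinases, Aurkb was the one gene of the 38 whose groups did not overlap. Aurkb encodes the kinase of the chromosomal passenger complex, which corrects faulty kinetochore attachments. Its normalised counts were 3411, 3402 and 3384 (control 1 to 3) against 3110, 3304 and 3304 (cKO 1 to 3), so that all 3 cKO libraries lay below all 3 controls. The means of 3399 ± 13.5 against 3240 ± 112 in cKO (SD, n = 3) amount to 95.3% of the control level, a log2 difference of -0.07 (SE 0.06) with an interval of -0.22 to 0.08. It did not pass over all genes (limma adjusted p = 0.978), and an exact permutation test (2-sided) gave p = 0.1, the smallest that 3 against 3 allows. Of all tested genes, 5.64% had all cKO values below all controls and 4.51% had all above, 10.2% in all; among the 38 these were 1 and 0 genes.

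Plk1 (chr7:122159439-122169873, plus strand), the polo-like kinase needed for spindle assembly, had 3904, 3847 and 3942 (control 1 to 3) against 3426, 3909 and 3990 (cKO 1 to 3). Its means were 3898 ± 47.9 against 3775 ± 305 in cKO (SD, n = 3), a log2 difference of -0.05 (SE 0.08). The value of cKO 1 was low and the other 5 libraries lay between 3847 and 3990. Aurka, the kinase of the spindle poles, had means of 2349 ± 26.9 against 2431 ± 131 in cKO (SD, n = 3) and a log2 difference of 0.05 (SE 0.07). Birc5, for survivin, the partner of AURKB in the passenger complex, had means of 2758 ± 107 against 2785 ± 128 in cKO (SD, n = 3) and 0.01 (SE 0.07). Nek2, a centrosome kinase, had means of 2514 ± 147 against 2684 ± 171 in cKO (SD, n = 3) and 0.09 (SE 0.08). The partner Birc5 did not share the order of values of Aurkb, since its groups overlapped.

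The spindle checkpoint and APC/C genes had fold changes of both signs. Cdc20 (chr4:118432901-118437352, minus strand), the activator of the APC/C and the target of the checkpoint, had normalised counts of 3797, 3574 and 3494 (control 1 to 3) against 3888, 3457 and 4036 (cKO 1 to 3), with means of 3622 ± 157 against 3794 ± 301 in cKO (SD, n = 3) and a log2 difference of 0.06 (SE 0.08). The lowest library of all 6 was cKO 2 and the highest cKO 3, so the cKO values spanned the controls. Ube2c, the ubiquitin-conjugating enzyme that works with the APC/C, had 6487, 6554 and 7151 (control 1 to 3) against 5675, 6785 and 7354 (cKO 1 to 3), a log2 difference of -0.03 (SE 0.11). Ttk, the checkpoint kinase also called MPS1, had 817, 788 and 873 (control 1 to 3) against 653, 833 and 859.9 (cKO 1 to 3), a log2 difference of -0.09 (SE 0.12), with cKO 1 again the low library. The checkpoint kinase gene Bub1 and its relative Bub1b, for BUBR1, had means of 2540 ± 132 against 2577 ± 121 in cKO (SD, n = 3) and 5153 ± 146 against 5245 ± 213 in cKO (SD, n = 3), and log2 fold changes of 0.02 (SE 0.07) and 0.03 (SE 0.07).

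Of the centromere and kinetochore genes, Cenpf stood out by its spread. Cenpf, a large kinetochore protein of late G2, had normalised counts of 4793, 3535 and 3601 (control 1 to 3) against 4899, 4029 and 4227 (cKO 1 to 3), with means of 3976 ± 708 against 4385 ± 456 in cKO (SD, n = 3) and a log2 difference of 0.15 (SE 0.13). Both libraries numbered 1 were above the other 4, and cKO was higher than control at each number. With the replicate number as a block, its unadjusted p was 0.0388 and its limma adjusted p 0.37, so it did not pass. Cenpa, the histone H3 variant that marks centromeres, had a log2 difference of -0.01 (SE 0.08) and Cenpe, a kinetochore motor, -0.02 (SE 0.08). Ndc80 and Nuf2, which together form the arm that grips microtubules, had 0.03 (SE 0.09) and -0.04 (SE 0.08).

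Genes of spindle motors and spindle assembly gave log2 fold changes of -0.07 to 0.04, the narrowest range of the groups with 5 or more genes. Kif11, the motor that pushes the spindle poles apart, was the most abundant of them in normalised counts, with 7231, 6953 and 6801 (control 1 to 3) against 6530, 6939 and 6522 (cKO 1 to 3). Its means were 6995 ± 218 against 6664 ± 238 in cKO (SD, n = 3), a log2 difference of -0.07 (SE 0.07); control 3 lay below cKO 2, so the groups overlapped. Tpx2, the activator of Aurora A on the spindle, had -0.02 (SE 0.07), Nusap1, a microtubule-binding protein, -0.06 (SE 0.10) and Hmmr, a spindle-associated hyaluronan receptor, -0.02 (SE 0.08). Kif2c, a microtubule depolymerase, had -0.03 (SE 0.08), and Dlgap5, which stabilises kinetochore fibres, 0.04 (SE 0.08). Tacc3, which cross-links spindle microtubules, had 0.01 (SE 0.07), the spindle protein gene Ckap2l 0.04 (SE 0.11) and Gtse1, a microtubule-binding protein, -0.06 (SE 0.15). Exons of Nusap1 and Tacc3, like those of Ccna2 and Cdc20 above, overlap an expressed gene on the opposite strand (Oip5, Tmem129, Exosc9 and Elovl1), whose reads may not have been told apart.

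Cytokinesis genes included the gene with the second largest fold change, Anln, for the contractile ring scaffold anillin. Anln (chr9:22332012-22389188) had normalised counts of 1201, 1742 and 1790 (control 1 to 3) against 1365, 1943 and 1932 (cKO 1 to 3), with means of 1578 ± 327 against 1747 ± 331 in cKO (SD, n = 3) and a log2 difference of 0.15 (SE 0.19). Both libraries numbered 1 lay below the other 4, and within each number cKO was higher, by 0.18, 0.16 and 0.11 on the log2 scale. With the replicate number as a block its unadjusted p was 0.0298 and its limma adjusted p 0.351; in that fit 2 of the 38 genes, Anln and Cenpf, had an unadjusted p under 0.05, against 12.6% of all tested genes. Kif20a, a motor of the central spindle, had 2395, 2479 and 2369 (control 1 to 3) against 2635, 2298 and 2502 (cKO 1 to 3), a log2 difference of 0.04 (SE 0.08); its exons overlap those of Cdc23 on the opposite strand. Kif23, a component of centralspindlin, had 0.09 (SE 0.08), and Kif20b, a related kinesin, -0.01 (SE 0.10). Ect2, the exchange factor that activates RhoA at the cleavage site, had 2367, 2457 and 2488 (control 1 to 3) against 1992, 2539 and 2641 (cKO 1 to 3), a log2 difference of -0.04 (SE 0.11).

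The 3 genes of chromosome structure had negative fold changes close to 0. Top2a, the topoisomerase that untangles sister chromatids, was the most abundant of the 38, with 33585, 39072 and 38394 (control 1 to 3) against 29424, 42423 and 38067 (cKO 1 to 3). The means were 37017 ± 2991 against 36638 ± 6616 in cKO (SD, n = 3), a log2 difference of -0.03 (SE 0.15); the lowest and the highest library were both cKO, 1 and 2. Mki67, the gene of the Ki-67 proliferation marker, which coats mitotic chromosomes, had 17698, 14845 and 15098 (control 1 to 3) against 15050, 16720 and 14906 (cKO 1 to 3), a log2 difference of -0.03 (SE 0.10). Smc4, a condensin subunit, had means of 10997 ± 861 against 10544 ± 254 in cKO (SD, n = 3) and -0.06 (SE 0.08). These signs were not stable: with upper-quartile scaling Top2a and Mki67 were both at 0.01 and Smc4 at -0.02.

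**Figure D2:**
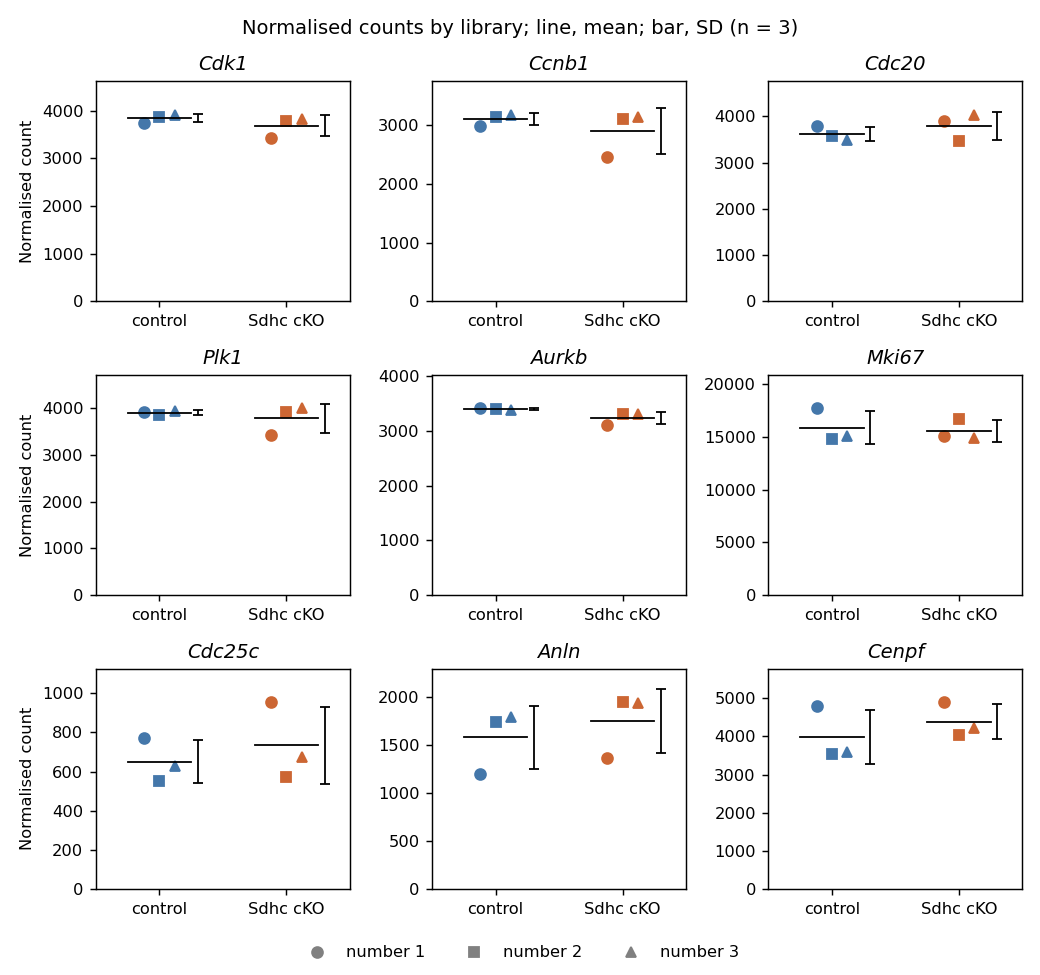
Normalised counts (y axis, from 0) of 9 genes in each control (blue) and Sdhc cKO (orange) library; symbols give the replicate number, lines the mean and bars the SD (n = 3 each). In Aurkb all cKO points lie below the controls, while in Cdc25c, Anln and Cenpf the circles, libraries numbered 1, stand apart in both groups.

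Per kilobase of exon, the genes were well expressed in control cells. Dividing by the merged exon length in GENCODE M21, the median over the 38 was 757 normalised counts per kilobase, against 108 over the 11959 tested genes with a length, and 20 of the 38 were in the top 10% of those genes. The order began with Top2a (4107 per kilobase), Ube2c (2589), Ccnb2 (2345) and Smc4 (2111), and ended with Anln (174), Ttk (168) and Cdc25c (132). The cKO levels of these genes were 4065, 2540, 2259 and 2024, and 193, 159 and 149 per kilobase. The neighbours Anln and Ttk kept their order in both groups.

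The libraries of a genotype also differed among themselves. The library cKO 1 was the lowest of the 6 for 20 of the 38 genes, where over all tested genes it was the lowest for 32.0%. Its median deviation from the mean of each gene was -0.08 on the log2 scale, while the other 5 libraries had medians of -0.01 to 0.03. Summed over the 38 genes, the normalised counts were 178885, 179177 and 179683 (control 1 to 3) against 164670, 186392 and 182116 (cKO 1 to 3). The control sums thus agreed closely, and the cKO sums lay on both sides of them. Top2a, the most abundant of the 38, weighs most in these sums, with 29424, 42423 and 38067 in cKO 1 to 3. The order of the sums therefore need not hold for the other genes. Single genes differed more between the controls, and in both directions. Control 1 was lower in Top2a (33585 against 39072 and 38394) and higher in Mki67 (17698 against 14845 and 15098). The SD of the normalised counts was larger in cKO than in control for 31 of the 38. The share over all tested genes is not given here, so this count does not set the 38 apart. Without cKO 1 the median log2 fold change was 0.03, with 25 positive and 13 negative, and still 0 genes passed.

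**Figure D3:**
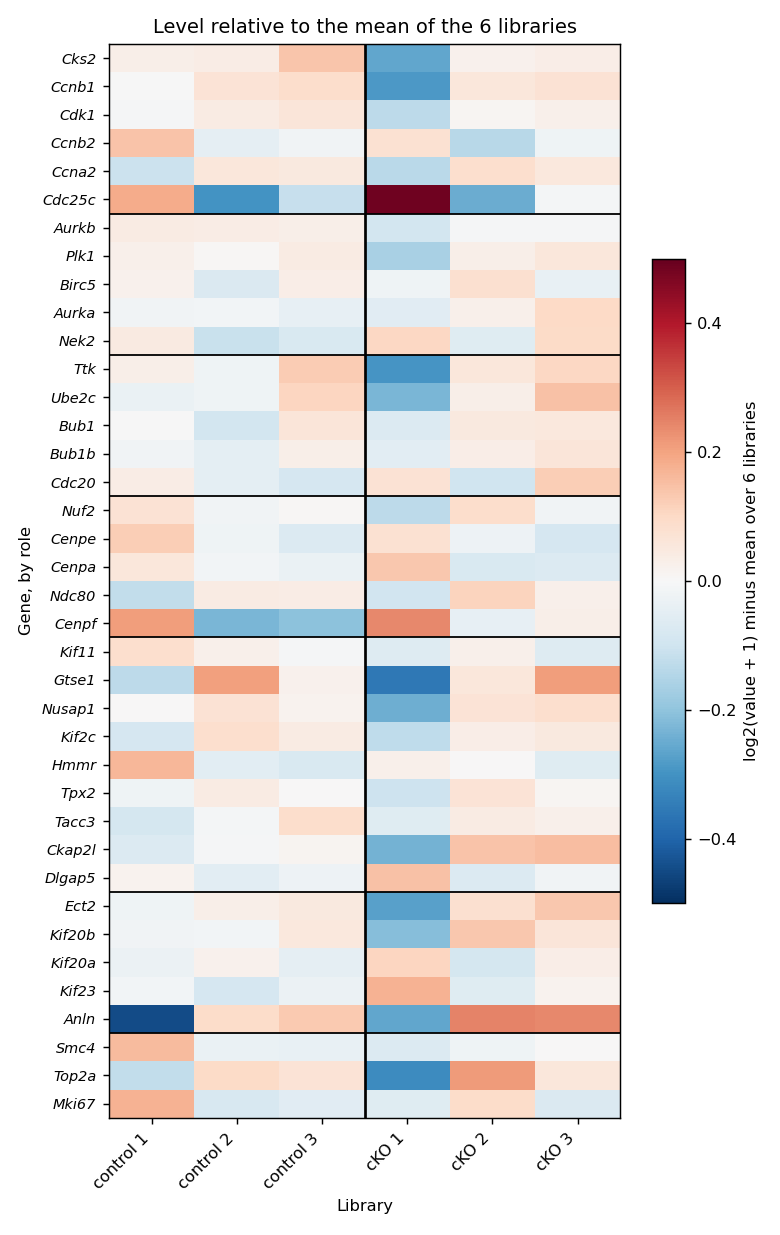
Level of each of the 38 genes (rows, by role) in each library (columns) as log2(value + 1) minus the mean of that gene over the 6 libraries (colour). The column of cKO 1 is mostly blue (lower), and Cdc25c in cKO 1 (0.49) and Anln in control 1 (-0.45) have the strongest colours, followed by Gtse1 in cKO 1 (-0.36).

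The replicate number divided these genes further. For 22 of the 38 (57.9%) both libraries numbered 1 lay on one side of the other 4, against 40% of all tested genes; 15 were below and 7 above, where all tested genes gave 20.3% below and 19.7% above. Those below included Anln, with a difference of -0.53 between the means of the number 1 libraries and the others on the log2 scale, Gtse1 (-0.37), Top2a (-0.33), Ckap2l (-0.23) and Ect2 (-0.22). Those above were Cdc25c (0.50), Cenpf (0.34), Ccnb2 (0.16), Cenpe (0.15), Cenpa (0.14), Hmmr (0.14) and Dlgap5 (0.12). The genotype differences of the same genes were at most 0.15 in size. Since these genes were selected by their number 1 libraries, the sizes by number and by genotype cannot be weighed against each other. The libraries numbered 1 are also those with next to no Y-linked reads. Their NK cell gene sums were 281 to 371 against 106 to 190 in the other 4, with Klrk1 the largest contributor. Klrd1 and Klrb1c were also higher in both libraries numbered 1 than in the other 4, while Ncr1, Klre1 and Klra8 were not. The sums therefore do not show a difference in NK cells. The part of the Y-linked reads or of these genes in the pattern was not tested.

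**Figure D4:**
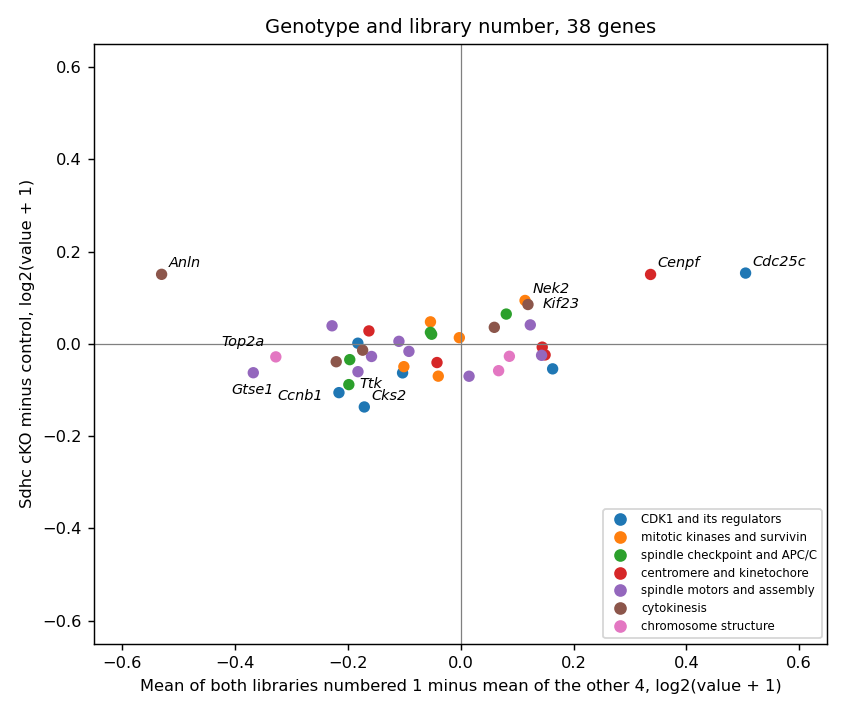
For each of the 38 genes (points, coloured by role), the mean of both libraries numbered 1 minus the mean of the other 4 (x axis) against Sdhc cKO minus control (y axis), both as differences of log2(value + 1). The points spread from -0.53 to 0.50 along the x axis and from -0.14 to 0.15 along the y axis.

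Within same-numbered libraries the cKO value was compared with its control gene by gene. At number 1, 11 of the 38 were higher and 27 lower in cKO (median -0.08), where 45.2% of all tested genes were higher. At number 2, 24 were higher and 14 lower (median 0.03), and at number 3, 22 were higher and 16 lower (median 0.01), where 47% and 47.1% of all tested genes were higher. Higher in cKO at every number were 5 genes, Cdc25c, Cenpf, Kif23, Nek2 and Anln, and 7 were lower at every number, Cdk1, Ccnb1, Ccnb2, Aurkb, Cenpe, Kif11 and Cks2. Of all tested genes 14.6% were higher and 21.8% lower at every number. None of these 12 passed over all genes with the replicate number as a block (limma adjusted p of at least 0.351).

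Other genes of mitosis also gave no call. Of a list of 65 further mitotic symbols, 60 were in the table and tested; 0 passed, 36 had positive and 24 negative fold changes, and the median was 0.01. All 3 cKO values lay above the controls for 7 of them and below for 1, where 4.51% and 5.64% of all tested genes did so. The most positive fold change of the list was that of Hjurp, the chaperone that loads CENP-A at centromeres, with 7343, 7880 and 8553 (control 1 to 3) against 9004, 9921 and 9362 (cKO 1 to 3). Its log2 fold change was 0.25 (SE 0.08) with an interval of 0.06 to 0.45, an unadjusted p of 0.0171 and a limma adjusted p of 0.978. All cKO values were above the controls, while Cenpa itself had a log2 difference of -0.01. The most negative was Depdc1a, a mitotic gene of lower level, with -0.30 (SE 0.18) and overlapping groups.

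Of 24 genes that restrain mitotic entry or form the APC/C core, 0 passed, with 10 positive and 14 negative fold changes and a median of -0.04. The extremes were Cdc26, an APC/C subunit, at 0.14 (SE 0.10) and Chek1, the checkpoint kinase of S and G2 phase, at -0.22 (SE 0.21). A further list of 23 held genes of the DREAM, B-Myb, FoxM1 and NF-Y factors together with other E2F and RB family genes. Of these 0 passed, with 6 positive and 17 negative and a median of -0.11. With the Y-linked covariate 5 of these 23 and 3 of the 24 above were called lower, against 4.86% of all tested genes. The extremes were Nfya, a subunit of NF-Y, at 0.07 (SE 0.10) and Tfdp1, the E2F partner, at -0.28 (SE 0.11). Tfdp1 had 3321, 3936 and 3510 (control 1 to 3) against 2534, 3243 and 3111 (cKO 1 to 3), so its groups did not overlap (unadjusted p = 0.0377, limma adjusted p = 0.978). All cKO values lay below the controls for 3 of the 23, Tfdp1, Mybl2 and E2f4, and above for 0. Of all tested genes 5.64% lay below and 4.51% above.

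Mybl2 and Foxm1 of that list were picked after their values were seen, because they act on G2/M promoters. Mybl2, for B-Myb, had 662, 649 and 656 (control 1 to 3) against 560.4, 570.3 and 580.1 (cKO 1 to 3), tight in both groups and without overlap. All cKO values lay below the controls for 5.64% of all tested genes. The means of 656 ± 6.69 against 570.3 ± 9.83 in cKO (SD, n = 3) gave a log2 difference of -0.20 (SE 0.08) with an interval of -0.38 to -0.02, an unadjusted p of 0.0311 and a limma adjusted p of 0.978. Foxm1 had 2454, 2585 and 2607 (control 1 to 3) against 2450, 2662 and 2731 (cKO 1 to 3), with overlapping groups and a log2 difference of 0.04 (SE 0.07). Neither passed over all genes.

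S phase genes, the nearest class in the cycle, had mostly negative fold changes. Of 44 genes of DNA replication and deoxynucleotide supply, 43 had negative and 1 a positive fold change, where all tested genes gave 6870 negative and 5829 positive. The median was -0.15, beside -0.02 for the 38 mitotic genes in the same fit, and 0 passed in either list. The extremes were Orc1, a subunit of the origin recognition complex, at -0.34 (SE 0.19) and Gins3, of the replicative helicase, at 0.12 (SE 0.11). The groups did not overlap for 9 of the 44, all with cKO below, and for 1 of the 38, against 5.64% of all tested genes with cKO below. With the Y-linked covariate 16 of the 44 were called lower (limma), against 4.86% of all tested genes, and 0 higher. Summed S phase counts were 108062, 126965 and 121953 (control 1 to 3) against 91732, 118697 and 109426 (cKO 1 to 3). The ratio of the mitotic to the S phase sum was 1.66, 1.41 and 1.47 (control 1 to 3) against 1.80, 1.57 and 1.66 (cKO 1 to 3), higher in cKO at each of the 3 numbers but with overlapping groups. The difference between the lists was not tested.

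**Figure D5:**
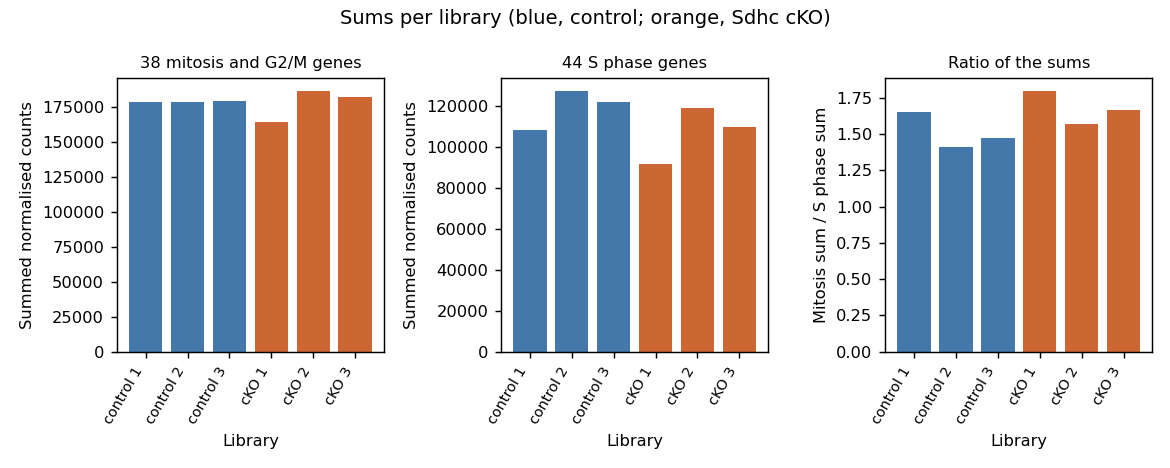
Summed normalised counts of the 38 mitosis and G2/M genes (left) and of 44 S phase genes (middle), and the ratio of these sums (right), for each library (x axis; blue, control; orange, Sdhc cKO; axes start at 0). The mitotic sums run from 164670 to 186392, and the S phase sums from 91732 to 126965.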

How the data were processed

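RNA-seq of 3 control and 3 Sdhc cKO libraries was used, grouped by title. STAR, HTSeq and DESeq2 and the build mm10 are named in the submitters' processing notes, without versions or settings. The deposited signal values are gene reads divided by 1 size factor per library: divided by the smallest nonzero value of its library, 100% of the values came out whole (tolerance 0.01). The 12699 genes above 10 in 3 or more libraries were fitted on log2(value + 1) with limma-trend (version 3.58.1 of limma, in R 4.3.3), by genotype alone, with p-values adjusted by Benjamini-Hochberg and a threshold of 0.05; this scale understates the change of low genes. The recovered reads went into edgeR 4.0.16, DESeq2 1.42.0 and limma-voom as alternatives. The fit was tested on simulated data. Gene positions and exon lengths are from GENCODE M21 (GRCm38, the assembly of mm10).

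The members, the lists and the settings were chosen with earlier results of these data known. Values are printed for 6 fixed genes, genes without overlap, the 3 largest fold changes in each direction, the highest and lowest mean, and the most abundant gene of each role; of the other lists, the largest fold change in each direction. Exons of 11 members overlap another gene in GENCODE M21, 10 of them on the opposite strand. Same-numbered libraries deviated together across genes (correlations of 0.579, 0.458 and 0.188, although control 2 and cKO 3, which differ in number, had 0.272), so the number was used as a block in an alternative; the labels do not say what the number marks. One marker list is not reported here.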

Additional observations from a re-analysis of the deposited data

How the results depend on the processing

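The call of 0 among the 38 genes was the same under all 21 alternatives except the covariate of Y-linked reads, which called 1 (Cdc25c, chosen after its value was seen). Over all tested genes, where 0 were called, the count was 1 with the replicate block, 2 with DESeq2, 1 with array weights, 826 with the covariate, 163 with the covariate and the block, 1 without both libraries numbered 1, and 0 to 1 when each library was left out in turn. edgeR and limma-voom called 0, with 455 and 433 genes at an unadjusted p under 0.05. The replicate block changed no call among the 38. The median of the 38 was -0.072 with the covariate and the block and 0.030 without both libraries numbered 1, and ran from -0.036 to 0.030 with single libraries left out, the highest without cKO 1. The sign of the fold change was the same under all 21 alternatives for 7 of the 38 genes (Cdk1, Aurkb, Cenpf, Kif11, Kif23, Nek2 and Cks2). The cause of these changes was not tested. At 3 libraries a group, 95% intervals as wide as those given limit what could be seen. The median SE over the 38 was 0.08 on the log2 scale, before any adjustment for the number of genes. Differences of a few percent were not detectable, and larger ones could go uncalled too. Ifng, at -0.67, was not called in the main fit (limma adjusted p = 0.265).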

Other observations

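Genes with Cdkn symbols, most of them for CDK inhibitors, were also measured. Of these 8 genes 0 passed, with 6 positive and 2 negative fold changes and a median of 0.05. Cdkn1b, for p27, the inhibitor that is high in resting T cells, had normalised counts of 1732, 1831 and 1950 (control 1 to 3) against 1797, 2280 and 2090 (cKO 1 to 3), a log2 fold change of 0.16 (SE 0.10). Cdkn1a, for p21, a target of p53, had 4667, 5596 and 5368 against 3987, 4855 and 5685, a log2 fold change of -0.12 (SE 0.14). The groups overlapped for both genes.

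All 12 tested genes of the G1 and G1/S cyclins and kinases were on the negative side (median -0.09), and 0 passed; with the Y-linked covariate 2 were called lower (limma), against 4.86% of all tested genes. The values closest to and farthest from 0 were those of the D-type cyclins Ccnd3, at -0.00 (SE 0.11) with means of 7120 ± 900 and 7082 ± 621 (SD, n = 3 each), and Ccnd1, at -0.42 (SE 0.41), which was near the floor with at most 18.7 normalised counts.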
